A study of Mus musculus with 4 samples.

Results

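The cells described here are transferred Pmel-1 CD8 T cells, taken from melanoma tumors, that carried a high combined level of Ifng and Xcl1 RNA. Members were chosen from the 2 libraries of transferred cells by a fixed rule. A cell barcode needed 1000 or more UMIs (unique molecular identifiers, each 1 captured RNA molecule), 500 or more genes, and no more than 10% of its UMIs from mitochondrial genes. It also needed at least 2 UMIs of Cd8a and Cd8b1 together, and Lyz2, a myeloid gene, under 10 per 10000 UMIs. Members then held at least 10 UMIs of Ifng and Xcl1 together per 10000 UMIs of the cell. The rule found 907 members among 2614 transferred CD8 cells that passed its other steps, of 17711 barcodes in the whole series. Because the same cells' RNA chose the members, every difference between members and other cells below is a description and carries no test.

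The study put Pmel-1 T cells into C57BL/6 mice with B16-F10 melanoma and profiled sorted tumor-infiltrating cells by droplet single-cell RNA sequencing. Pmel-1 cells carry a transgenic T cell receptor against the melanocyte antigen gp100, which B16-F10 tumors express. In the IRF4 arm the cells had been transduced with IRF4 and GFP, and in the GFP-only arm, the control, with GFP alone, so cells of both arms were transduced. Cells were given 3 days after tumor implantation and tumors were harvested at 14 days. The transferred cells of each arm were sorted as 1 library, and endogenous CD45+ cells of the same arms gave 1 library each. With 1 library per group there is no replicate check, so no p-value is given, and the intervals below cover counting error only. How many mice stood behind each library is not stated, and the protocol speaks of nuclei in its loading step although it describes cell sorting.

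An activated CD8 T cell that meets its antigen releases cytokines and chemokines within hours. Interferon-γ, encoded by Ifng, acts on tumor and myeloid cells, whereas the chemokine encoded by Xcl1 attracts cross-presenting dendritic cells. T cell receptor signals switch on such genes through NFAT, AP-1 and NF-κB, together with immediate early factors of the NR4A and EGR families and surface receptors such as 4-1BB (Tnfrsf9). IRF4 is a transcription factor induced by the same receptor in proportion to signal strength.

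Members made up 112 of 497 CD8 cells in the IRF4 arm, a share of 22.5% (exact 95% interval 18.9 to 26.5). Of 2117 cells in the GFP-only arm 795 were members, a share of 37.6% (35.5 to 39.7). The share in the IRF4 arm was thus 0.600 times that in the GFP-only arm (95% interval 0.505 to 0.713, counting error only). When every cell was thinned to 2000 UMIs, the shares were 28.8% and 42.7%, again lower in the IRF4 arm. The same rule found 68 of 2119 endogenous CD8 cells in the IRF4 arm (3.21%) and 40 of 892 in the GFP-only arm (4.48%). The distribution of the combined Ifng and Xcl1 level was continuous, with no gap at the threshold. The 3 members nearest the threshold held 10.3, 10.3 and 10.6 per 10000 in the IRF4 arm and 10.01, 10.02 and 10.02 in the GFP-only arm. The nearest cells outside it held 9.73, 9.67 and 9.50 in the IRF4 arm and 9.99, 9.95 and 9.93 in the GFP-only arm.

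**Figure D1:**
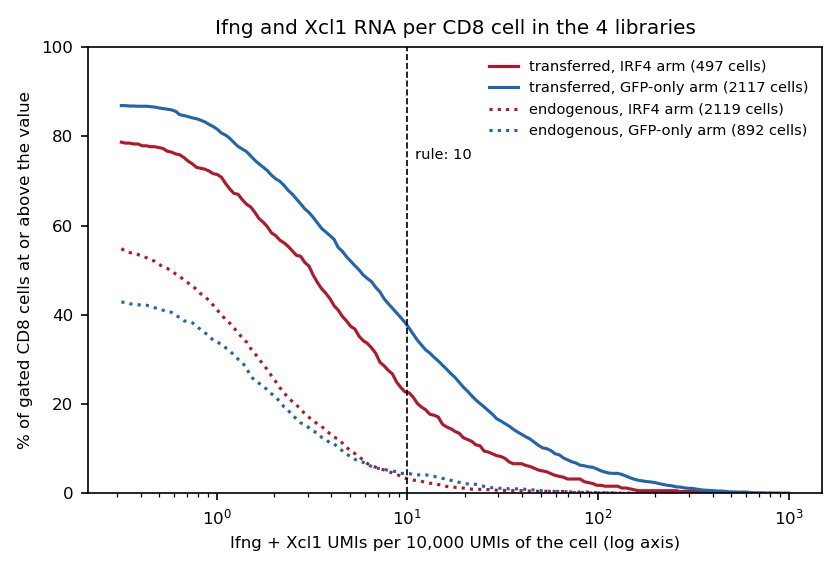
Percent of gated CD8 cells (vertical axis) at or above each combined level of Ifng and Xcl1, in UMIs per 10000 UMIs of the cell (horizontal log axis), for the 4 libraries. At the rule's value of 10 the curves of the transferred cells stand at 22.5% (IRF4 arm) and 37.6% (GFP-only arm), and those of the endogenous cells at 3.21% and 4.48%.

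Members carried more RNA than the other cells, which touches every comparison below. Median UMIs per cell were 28306.5 in members and 13969 in the other cells of the IRF4 arm, and 34065 against 13602 in the GFP-only arm. The part of depth in the results was not tested, but member shares, counts of calls, list medians and the ratios of named genes were also computed in cells of at least 20000 UMIs. All 10 T cell markers stood at 10 UMIs per 1000000 (CPM) or more in members and in other cells of both arms. Cd8a and Cd8b1 are among these 10 markers and were required by the rule, so their levels are no separate sign of identity. Of the transgenic receptor's β-chain segment Trbv14, chosen after its values were seen, 111 of 112 members in the IRF4 arm (99.1%) and 757 of 795 in the GFP-only arm (95.2%) had a UMI. Among the endogenous cells that met the rule, 1 of 68 and 0 of 40 had one. Markers of other cell types were low but not absent. The 14 myeloid markers other than Lyz2 summed to 399 CPM in members of the IRF4 arm, with Flt3 at 0, and to 1191 CPM in members of the GFP-only arm. In the other cells the same markers summed to 1390 and 1197 CPM. Foxp3 was at 0 in members of both arms, and summed CPM of the neutrophil, mast cell and melanoma markers reached at most 6.68. Hemoglobin genes summed to 26.5 CPM in members and 320.2 CPM in the other cells of the GFP-only arm, and were at 0 in members of the IRF4 arm. The B cell markers summed to 122 and 149 CPM, the NK cell markers to 33.1 and 35.1 CPM, the γδ T cell markers to 25.4 and 52.1 CPM, and the CD4 and regulatory T cell markers to 88.2 and 228 CPM in members of the IRF4 and GFP-only arms. No barcode was shared between the 2 transferred libraries, and other library pairs shared 0 to 18.

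The gene behind the arms, Irf4, was counted first in every group. Its level was 29.7 CPM in members and 27.0 CPM in other cells of the IRF4 arm. It was 34.4 CPM in members and 15.9 CPM in other cells of the GFP-only arm. Members of the IRF4 arm therefore did not stand above members of the GFP-only arm (ratio 0.863, interval 0.709 to 1.04), while the other cells of the IRF4 arm had the higher level. Whether vector transcripts entered these counts is not stated, so Irf4 counts from the 3′ end are no check of the arm labels. Over rising Ifng and Xcl1 levels, Irf4 went from 6.63 CPM in GFP-only cells with neither RNA to 53.1 CPM in GFP-only cells at 50 per 10000 or more. In the IRF4 arm the corresponding cells held 21.7 and 17.6 CPM.

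Xcl1 contributed most of the counts that made a cell a member. Its summed level was 3064 CPM in members and 278 CPM in other cells of the IRF4 arm, and 3374 against 418 CPM in the GFP-only arm. Ifng stood at 540 against 82.5 CPM and at 572 against 30.1 CPM. These are the values the rule selected on. In the IRF4 arm 81 of 112 members (72.3%) reached 10 per 10000 through Xcl1 alone, 11 through Ifng alone, 10 through either gene and 10 only through the sum. In the GFP-only arm 649 of 795 members (81.6%) did so through Xcl1 alone, 12 through Ifng alone, 112 through either and 22 only through the sum. No Ifng UMI was found in 17 members (15.2%) of the IRF4 arm and in 261 members (32.8%) of the GFP-only arm. Ifng RNA was also more unevenly spread than Xcl1 RNA. In the IRF4 arm 6 members held 50% of the members' Ifng UMIs and 17 held 50% of the Xcl1 UMIs. The corresponding numbers were 34 and 152 of 795 members in the GFP-only arm.

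Both genes lie apart from the clustered CC chemokine genes. In GENCODE vM21 coordinates on mm10, the genome of the deposited counts, Ifng lies at chr10:118441046-118445892 on the plus strand and Xcl1 at chr1:164931644-164935527 on the minus strand. Ccl3, Ccl4, Ccl5 and Ccl9 lie within 1 stretch of chromosome 11, and Il2 lies at chr3:37120523-37125959 on the minus strand. The 250 bases upstream of the start of 4 genes are printed because Ifng and Xcl1 defined the members and because Il2 and Ccl1 parted in opposite directions between the arms. The sequences are from RefSeq on GRCm38.p6, written 5′ to 3′ on the gene's strand. Capitals mark matches on either strand to the NFAT core GGAAA, the AP-1 motif TGANTCA or the NF-κB type motif GGGNNNNNCC, and matches of different motifs may overlap.
Ifng, chr10:118440796-118441045, plus strand: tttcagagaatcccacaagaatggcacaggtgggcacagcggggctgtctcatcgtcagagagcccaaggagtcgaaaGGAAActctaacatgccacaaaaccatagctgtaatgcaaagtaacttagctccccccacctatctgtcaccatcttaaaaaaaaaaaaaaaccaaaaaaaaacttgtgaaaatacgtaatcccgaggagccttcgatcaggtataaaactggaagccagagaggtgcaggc
Xcl1, chr1:164935523-164935772, minus strand: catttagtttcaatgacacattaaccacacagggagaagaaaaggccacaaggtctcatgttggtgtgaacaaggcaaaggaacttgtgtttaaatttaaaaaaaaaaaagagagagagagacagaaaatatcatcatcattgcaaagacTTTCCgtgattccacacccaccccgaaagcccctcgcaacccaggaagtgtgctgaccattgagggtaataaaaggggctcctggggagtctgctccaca
Il2, chr3:37125955-37126204, minus strand: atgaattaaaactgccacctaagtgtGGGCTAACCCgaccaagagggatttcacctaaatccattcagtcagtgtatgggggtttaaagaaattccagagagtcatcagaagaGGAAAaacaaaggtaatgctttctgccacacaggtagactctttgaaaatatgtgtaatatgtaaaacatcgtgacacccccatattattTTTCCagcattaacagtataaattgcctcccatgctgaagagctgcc
Ccl1, chr11:82179813-82180062, minus strand: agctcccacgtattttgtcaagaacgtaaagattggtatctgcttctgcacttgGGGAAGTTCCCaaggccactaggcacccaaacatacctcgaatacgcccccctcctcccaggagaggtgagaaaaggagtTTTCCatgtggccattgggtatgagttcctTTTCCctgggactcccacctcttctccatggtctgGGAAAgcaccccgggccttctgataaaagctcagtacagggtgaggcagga
The NFAT core was present in the window of all 18 cytokine and chemokine genes with a RefSeq entry, of 22 looked for. Of 27025 genes in all, 58.8% held it in the window of at least 1 promoter. Ifng and Xcl1 had 1 match each, Il2 had 2 and Ccl1 had 3. The NF-κB type motif was found in 12 of the 18 genes against 48.7% of all genes. The AP-1 motif was found in 2 of the 18 against 7.82%. These matches describe letters in the window, not bound sites.

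The chemokine genes Ccl3, Ccl4 and Ccl1, which the rule did not use, stood higher in members of both arms, whereas Ccl5 stood lower. Genes were called higher or lower where the ratio of summed CPM, with 1 CPM added to each side, was at least 1.5 and 1 side reached 10 CPM. By that measure 452 of 7491 genes, 6.03%, were called higher in members than in the other cells of the IRF4 arm, and 599, 8%, lower, together 14%. Of 7557 genes in the GFP-only arm, 417, 5.52%, were called higher and 283, 3.74%, lower, together 9.26%. Both libraries called 258 genes higher, which is 57.1% of the calls in the IRF4 arm and 61.9% of those in the GFP-only arm. They shared 175 lower calls, 29.2% and 61.8% of each. Of the cytokine and chemokine list, which holds 20 genes besides Ifng and Xcl1, 7 of 13 measured genes were called higher and 2 lower in the IRF4 arm. The GFP-only arm had 10 of 15 called higher and 3 lower. The list's median log2 ratio was 0.99 in the IRF4 arm and 1.43 in the GFP-only arm, against 0.03 and 0.01 over all measured genes.

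Ccl4, a CC chemokine gene, stood at 1171 CPM in members and 373 CPM in other cells of the IRF4 arm, a ratio of 3.14 (interval 3.0 to 3.28). In the GFP-only arm it stood at 1488 and 112 CPM, a ratio of 13.3 (12.9 to 13.8). The smaller ratio in the IRF4 arm went with a higher level in that arm's other cells. Its neighbour Ccl3, another CC chemokine gene, showed 632 against 128 CPM in the IRF4 arm and 595 against 59.7 CPM in the GFP-only arm. Ccl1, the ligand of CCR8, reached 1193 CPM in members of the IRF4 arm against 151 CPM in other cells. Ccl1 was 669 against 53.3 CPM in the GFP-only arm. These 3 chemokine genes were thus higher in members of both libraries. They were carried by a subset: 6 of 112 members of the IRF4 arm and 30 of 795 of the GFP-only arm held 50% of the members' Ccl1 UMIs. Ccl5, a chemokine gene that memory and effector cells express at rest, moved the other way, with 971 against 1925 CPM in the IRF4 arm and 533 against 1030 CPM in the GFP-only arm. Its direction turned when members were taken by Ifng alone, with log2 ratios of 1.20 and 0.24.

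Lymphotoxin and the T cell growth and myeloid cytokines were scarcer. Lta, which encodes lymphotoxin-α, was 31.9 against 11.6 CPM in the IRF4 arm and 33.2 against 7.96 CPM in the GFP-only arm. Il2, the T cell growth factor gene, was 26.5 CPM in members and 5.92 CPM in other cells of the GFP-only arm, a ratio of 4.48 (interval 3.82 to 5.28). In the IRF4 arm Il2 was 3.74 CPM in members, from 15 UMIs, and 6.05 CPM in other cells, below the 10 CPM needed for a call. Csf2, which encodes GM-CSF, was 46.3 against 9.12 CPM in the GFP-only arm and 6.48 against 2.38 CPM, from 26 and 24 UMIs, in the IRF4 arm. Il2 and Csf2 in the GFP-only arm rested on few cells, since 9 members held 50% of the Il2 UMIs and 19 held 50% of the Csf2 UMIs. Tnf was 26.8 against 8.92 CPM in the GFP-only arm and 19.2 against 15.5 CPM in the IRF4 arm. Ccl9, a CCR1 ligand, was 92.4 against 40.7 CPM in the GFP-only arm and 27.4 against 19.1 CPM in the IRF4 arm. Il2, Csf2, Tnf and Ccl9 were therefore called higher in members of the GFP-only arm and not in those of the IRF4 arm. Csf2, like Il2, was below 10 CPM on both sides of the IRF4 arm. It could not be called there, although its level was higher in members. The difference between the arms was not tested. No UMI of Il10, Il21 or Areg was found in the 112 members of the IRF4 arm, which allows a share of cells with a UMI of up to 2.68% (3 cells of the total).

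**Figure D2:**
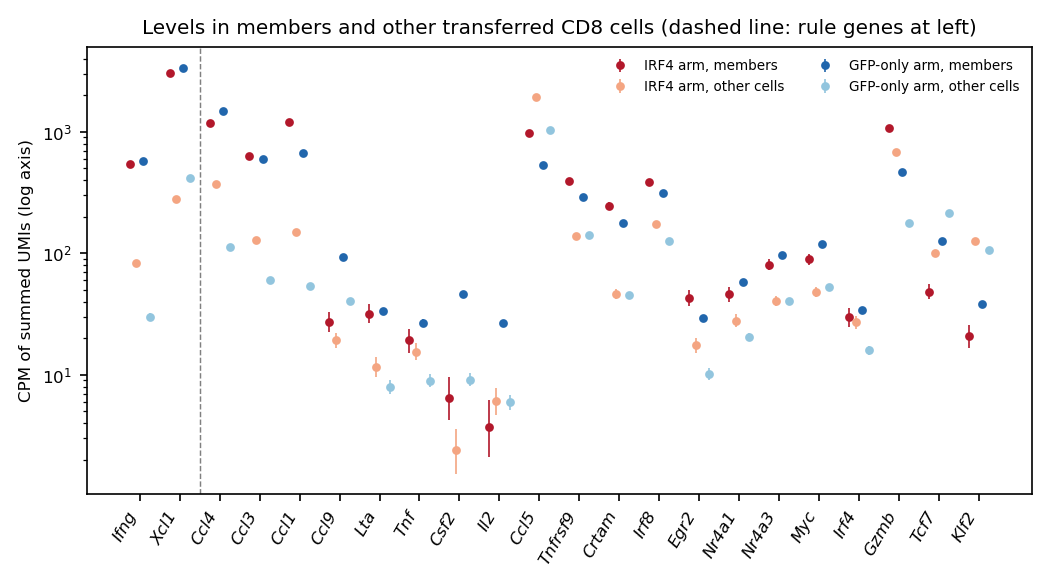
Summed CPM (vertical log axis) of 22 genes in members and other transferred CD8 cells of both arms, with exact Poisson 95% intervals that cover counting error only. Ifng and Xcl1, left of the dashed line, were used by the rule. Ccl4, Ccl3 and Ccl1 stand higher in members of both arms, while Il2 stands at 26.5 CPM in members of the GFP-only arm and 3.74 CPM in those of the IRF4 arm.

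Single members often carried several cytokine RNAs. At 2000 UMIs per cell, members held UMIs of 1.54 (IRF4 arm) and 1.70 (GFP-only arm) of 17 counted cytokine genes on average. Ifng and Xcl1 were not among the 17, nor were Ccl5, Ltb and Mif of the list. The other cells held 0.717 and 0.493. At least 3 such genes were found in 28.6% of members in the IRF4 arm (exact interval 20.4 to 37.9) and 27.3% in the GFP-only arm (24.2 to 30.5). Among other cells the shares were 5.71% and 2.51%. Of endogenous B cells, which should lack most of these RNAs, 0 of 108 and 0 of 475 reached 3 genes at the same depth. These counts allow shares of up to 2.78% and 0.632% (3 cells of the total). The B cells came from the endogenous libraries, so they do not measure free RNA in the transferred libraries. Without thinning, members carried a median of 5 genes in the IRF4 arm and 6 in the GFP-only arm, and the other cells 2 in each.

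A small group of members had more Ifng than Xcl1 RNA. It held 16 cells in the IRF4 arm and 34 in the GFP-only arm, against 96 and 761 cells led by Xcl1. Since Ifng and Xcl1 split these cells, their levels are left aside here. Ccl3 was 2721 CPM in Ifng-led and 436 CPM in Xcl1-led members of the IRF4 arm, and 2135 against 536 CPM in the GFP-only arm. Gzmb, which encodes the cytotoxic protease granzyme B, was 2359 against 949 CPM and 1333 against 434 CPM. Both genes were thus higher in Ifng-led members of each library. Ccl5 was 5826 against 517 CPM in the IRF4 arm and 1018 against 515 CPM in the GFP-only arm. Havcr2, which encodes the inhibitory receptor TIM-3, was 70.0 against 18.3 CPM and 44.3 against 10.7 CPM. Ccl1 was not higher in both, with 1560 against 1159 CPM in the IRF4 arm and 304 against 683 CPM in the GFP-only arm. Tcf7, which encodes the stem-like T cell factor TCF-1, was 2.92 against 52.6 CPM in the IRF4 arm, the former from 1 UMI, and 153 against 124 CPM in the GFP-only arm. Median UMIs were 11733 in Ifng-led and 31545 in Xcl1-led members of the IRF4 arm, and 28683.5 and 34274 in the GFP-only arm.

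Crtam and Tnfrsf9, receptors induced by T cell receptor signals, were higher in members of both arms, whereas the list of costimulatory and cytokine receptors was divided between higher and lower calls. Crtam, an adhesion receptor of activated CD8 T cells, was 246 against 46.4 CPM in the IRF4 arm and 178 against 45.0 CPM in the GFP-only arm. Those ratios, 5.30 (interval 4.74 to 5.93) and 3.95 (3.73 to 4.19), were the highest outside the chemokines by the weaker of the 2 arms, among genes of at least 50 CPM and 20 UMIs. Tnfrsf9, encoding the costimulatory receptor 4-1BB, was 393 against 140 CPM and 293 against 141 CPM. Il2ra, the high-affinity interleukin-2 receptor chain, was called higher in the GFP-only arm (76.2 against 26.3 CPM) and stood at 85.5 against 57.9 CPM in the IRF4 arm. Il7r, the interleukin-7 receptor of long-lived T cells, was lower in members, with 76.2 against 155 CPM and 130 against 237 CPM. Ifngr1, a chain of the receptor for interferon-γ itself, was 68.3 against 211 CPM in the IRF4 arm and 111 against 271 CPM in the GFP-only arm. Of 18 measured costimulatory and cytokine receptor genes, 3 were called higher and 4 lower in the IRF4 arm, and 4 higher and 4 lower in the GFP-only arm, with median log2 ratios of -0.02 and -0.11.

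Among immediate early and receptor-induced transcription factors, 7 of 24 measured genes were called higher and 5 lower in the IRF4 arm, and 8 of 23 higher and 0 lower in the GFP-only arm. The medians were 0.11 and 0.17. Egr2 was 43.1 against 17.5 CPM in the IRF4 arm and 29.2 against 10.2 CPM in the GFP-only arm. Nr4a1 and Nr4a3, orphan nuclear receptors that report recent receptor signals, had ratios of 1.64 and 1.99 in the IRF4 arm and 2.86 and 2.38 in the GFP-only arm. Irf8, a factor related to IRF4, was 385 against 173 CPM and 314 against 126 CPM, and Rel, an NF-κB subunit, had ratios of 2.03 and 1.72. Jun, an AP-1 subunit, was called lower in the IRF4 arm with levels of 122 and 262 CPM, and stood at 153 against 192 CPM in the GFP-only arm. Of the signal feedback list, 2 of 20 measured genes were called higher and 2 lower in the IRF4 arm, and 4 of 21 higher and 0 lower in the GFP-only arm, with medians of -0.12 and 0.07. Rgs16, a brake on G protein signals, was among the higher ones in both, with ratios of 1.82 and 2.90.

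Growth genes differed in the same direction in both libraries. Of 22 measured genes for amino acid supply and ribosome biogenesis, many of them targets of MYC, 18 were called higher in members of the IRF4 arm and 18 in members of the GFP-only arm, and 0 lower in either. Their median log2 ratios were 0.77 and 0.88. Myc itself was 89.5 against 48.1 CPM in the IRF4 arm and 119 against 53.0 CPM in the GFP-only arm. Srm, the spermidine synthase gene, was 210 against 88.0 CPM and 196 against 66.9 CPM. Nolc1, which acts in the nucleolus, had ratios of 1.96 and 2.23, and Hspd1, a mitochondrial chaperone gene, 1.97 and 2.10. Rrp9 and Mettl1, which act in processing ribosomal RNA and modifying transfer RNA, had ratios of 2.30 and 2.05 in the IRF4 arm and 2.22 and 2.10 in the GFP-only arm. The mitochondrial import gene Chchd4 had ratios of 2.16 and 2.28, and Tagap, a T cell activation GTPase regulator gene, 2.28 and 2.70. In cells of at least 20000 UMIs the list's medians were smaller, at 0.54 and 0.71, with the same sign. The part of depth in them was not tested.

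Cycling and glycolysis did not separate members in the same way. Of 21 proliferation genes 0 were called higher and 0 lower in either arm, with medians of 0.10 and 0.03. Mki67, a mark of cycling cells, was 300 against 367 CPM in the IRF4 arm and 188 against 197 CPM in the GFP-only arm. Of 18 glycolysis genes 0 were called in the IRF4 arm, and 1, Hk2, was called higher in the GFP-only arm at 21.0 against 11.9 CPM. The glycolysis medians were 0.12 and 0.10.

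Cytotoxic genes were partly higher. Gzmb was 1070 against 681 CPM in the IRF4 arm, a ratio of 1.57 (1.51 to 1.63), and 467 against 177 CPM in the GFP-only arm, a ratio of 2.64 (2.57 to 2.73). Prf1, encoding the pore former perforin, was 52.6 against 24.3 CPM and 36.0 against 15.0 CPM, and Serpinb9, an inhibitor of granzyme B, was 172 against 66.4 CPM and 124 against 52.1 CPM. Gzmk, a granzyme gene of early effector and memory cells, was lower, with 3.74 against 29.9 CPM and 3.22 against 12 CPM. Of the list, 5 of 11 measured genes were called higher and 1 lower in the IRF4 arm, and 4 of 12 higher and 3 lower in the GFP-only arm, with medians of 0.32 and 0.15. Gzmc was called higher in the IRF4 arm, but 1 cell held at least 50% of its UMIs there.

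Genes of resting and circulating T cells were lower in members. Klf2, a factor that maintains quiescence and exit from tissue, had the lowest ratios by the weaker arm among genes of the same minimum, with 20.7 against 127 CPM in the IRF4 arm (0.163, interval 0.129 to 0.203) and 38.5 against 107 CPM in the GFP-only arm (0.361, 0.339 to 0.384). Its target S1pr1, the receptor for leaving tissue, had ratios of 0.105, from 6 member UMIs, and 0.421. Tcf7 was 48.3 against 101 CPM and 125 against 213 CPM, and Bcl2, a survival gene, had ratios of 0.511 and 0.594. Of 15 measured stem and memory genes 8 were called lower in each arm, with 1 higher in the IRF4 arm and 0 in the GFP-only arm. The medians were -0.59 and -0.65. Of 12 measured chemokine receptor and adhesion genes 9 were called lower in the IRF4 arm and 6 in the GFP-only arm, and 0 higher, with medians of -1.09 and -0.56. Cxcr6, a tissue-homing receptor gene, was 72.8 against 171 CPM and 86.0 against 157 CPM, and Itgb7, an integrin chain gene, had ratios of 0.405 and 0.525. The Klf2 log2 ratio became smaller in cells of at least 20000 UMIs, at -1.75 and -0.59.

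The other genes lowest in members by the rule for named genes were Tsc22d3 and Txnip, both known for dampening growth and activation, with ratios of 0.385 and 0.476 in the IRF4 arm and 0.400 and 0.516 in the GFP-only arm. Cdkn1b, which encodes the cell cycle inhibitor p27, had ratios of 0.422 and 0.530. Ctla2a, a cathepsin inhibitor gene, had 0.319 and 0.461, Vps37b, of endosomal sorting, 0.428 and 0.475, Pyhin1, of the interferon-inducible HIN family, 0.426 and 0.533, Ypel3 0.380 and 0.513, and the noncoding AY036118 0.409 and 0.509. All were lower in members of both libraries.

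Inhibitory receptors and exhaustion factors were not higher in members. Of 7 measured genes 0 were called higher and 3 lower in the IRF4 arm, and of 8 in the GFP-only arm 0 higher and 3 lower, with medians of -0.56 and -0.26. Pdcd1, encoding PD-1, was 206 against 260 CPM and 198 against 281 CPM. Tox, a factor of exhausted T cells, was 35.4 against 74.0 CPM and 73.9 against 113 CPM, and Ctla4 had ratios of 0.362 and 0.612. Lag3 was 316 against 373 CPM in the IRF4 arm and 156 against 158 CPM in the GFP-only arm. Havcr2 was called lower in the IRF4 arm with levels of 22.7 and 41.0 CPM, and stood at 11.9 against 9.54 CPM in the GFP-only arm, and its direction in the IRF4 arm turned when members were taken by Ifng alone, at a log2 ratio of 0.85.

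By list median, response genes of interferon-γ were lower in members. This did not compare cells with and without Ifng RNA. No Ifng UMI was found in 15.2% of members and 53.8% of other cells in the IRF4 arm. In the GFP-only arm the shares were 32.8% and 77.6%. Of 17 measured genes 0 were called higher and 8 lower in members of the IRF4 arm, and 1 higher and 1 lower in the GFP-only arm, with medians of -0.55 and -0.35. Of the type I interferon list 0 of 5 were called higher and 1 lower in the IRF4 arm, and 0 of 9 higher and 3 lower in the GFP-only arm, with medians of -0.35 and -0.48. Of 15 survival genes 5 were called higher and 1 lower in the IRF4 arm, and 2 higher and 1 lower in the GFP-only arm, with medians of -0.02 and 0.03. Bcl2l1, encoding the survival protein BCL-XL, was among the higher ones with ratios of 2.15 and 2.05. Of 9 measured heat shock genes 0 were called higher and 2 lower in the IRF4 arm, and 2 higher and 0 lower in the GFP-only arm, with medians of 0.19 and 0.15.

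**Figure D3:**
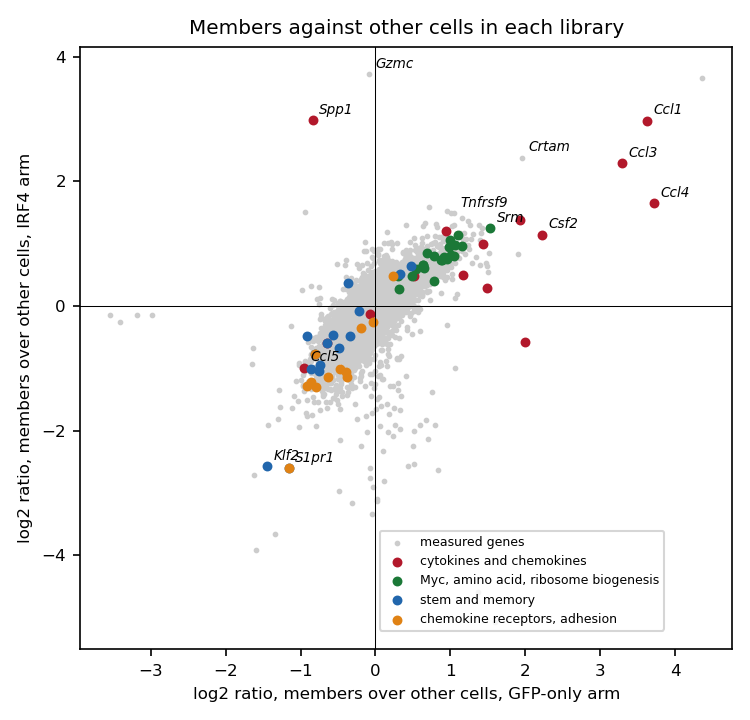
Log2 ratio of summed CPM of members over other cells, with 1 CPM added to each side, in the GFP-only arm (horizontal axis) and the IRF4 arm (vertical axis), for genes other than the rule's 5 with a level of 10 CPM or more. Ribosome biogenesis genes lie in the upper right with medians of 0.88 and 0.77, and stem and memory genes in the lower left with medians of -0.65 and -0.59. Spp1 lies apart from the other cytokine genes, at -0.84 in the GFP-only arm and 2.99 in the IRF4 arm.

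The differences of several genes were graded. Cells were divided by their combined Ifng and Xcl1 level into 6 ranges, and the lowest range held 102 cells of the IRF4 arm and 275 of the GFP-only arm without either RNA. At 50 per 10000 or more there were 25 and 223 cells. Tnfrsf9 went from 72.9 CPM in the lowest to 800 CPM in the highest range of the IRF4 arm, and from 95.7 to 553 CPM in the GFP-only arm. Irf8 went from 109 to 545 CPM and from 63.0 to 454 CPM. Both genes were higher in each range than in the one below it, in both arms. Srm went from 8.87 to 333 CPM in the IRF4 arm and from 30.8 to 317 CPM in the GFP-only arm. Tcf7 went the other way, from 112 to 18.9 CPM and from 256 to 97.8 CPM. Mki67 peaked in the middle ranges, at 398 CPM in IRF4 cells of 5 to 10 per 10000 and 240 CPM in GFP-only cells of 10 to 20. Il2 exceeded 20 CPM only in GFP-only cells of the highest range, at 107 CPM, where the IRF4 arm held 2.71 CPM. Median UMIs also differed between ranges, from 8425.5 in the lowest to 31270 in the fifth range of the IRF4 arm and from 6562 to 39279 in the GFP-only arm. In the highest range they were lower than in the fifth, at 17672 in the IRF4 arm and 25428 in the GFP-only arm.

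**Figure D4:**
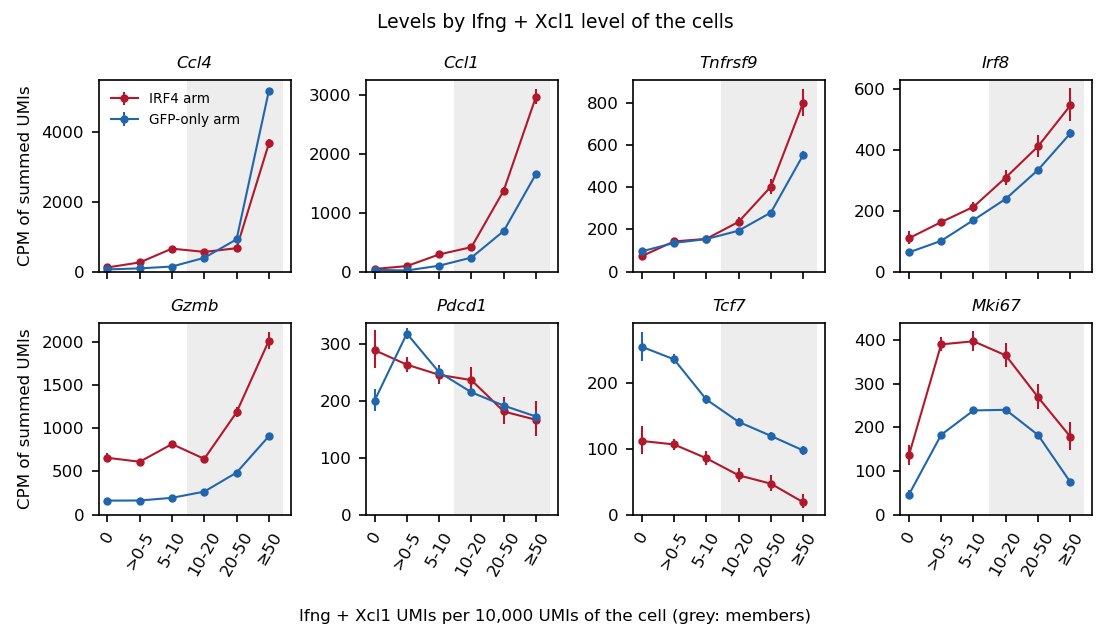
Summed CPM (vertical axes, from 0) of 8 genes over 6 ranges of the combined Ifng and Xcl1 level in UMIs per 10000 (horizontal axes), for the IRF4 arm (red) and GFP-only arm (blue), with exact Poisson 95% intervals; grey marks members. Tnfrsf9 reaches 800 and 553 CPM in the highest range, while Tcf7 stands at 18.9 and 97.8 CPM.

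Between the arms, members were compared directly. Of 7471 genes, 297, or 3.98%, were called higher in members of the IRF4 arm than in members of the GFP-only arm, and 412, or 5.51%, lower, together 9.49%. Xcl1 and Ifng, used by the rule, had ratios of 0.908 and 0.944. Of 15 measured cytokine and chemokine genes 3 were called higher and 5 lower, with a median log2 ratio of -0.13 against 0.03 over all genes. Ccl1 was 1.78 times as high in the IRF4 arm (interval 1.73 to 1.84). Ccl3, Ccl4 and Lta had ratios of 1.06, 0.787 and 0.959 and were not called. Il2, Csf2 and Ccl9 had ratios of 0.141 (0.0785 to 0.233), 0.140 (0.0911 to 0.206) and 0.297 (0.243 to 0.359). These 3 genes were thus lower in members of the IRF4 arm and Ccl1 was higher, and the intervals cover counting error only. In the other cells Ccl1 was also higher in the IRF4 arm, at 151 against 53.3 CPM. Csf2 (2.38 against 9.12 CPM) and Ccl9 (19.1 against 40.7 CPM) were also lower there. Il2 was close in the other cells, at 6.05 against 5.92 CPM.

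Members of the IRF4 arm carried more RNA of proliferation genes, and of some cytotoxic genes such as Gzmb. Of 21 proliferation genes 16 were called higher and 0 lower, with a median of 0.74. Mki67 was 300 against 188 CPM, Aurka, a mitotic kinase gene, had a ratio of 2.63, and Hmmr and Cenpe, also mitotic, had 2.29 and 2.21. Gzmb was 1070 against 467 CPM, a ratio of 2.29 (2.21 to 2.37). The other cells of the arms differed in the same direction, with Mki67 at 367 against 197 CPM and Gzmb at 681 against 177 CPM. These differences were thus not particular to members. Of 10 measured cytotoxic genes 3 were called higher and 0 lower, with a median of 0.26. Lag3 and Havcr2, both inhibitory receptors, were higher with ratios of 2.02 (1.90 to 2.15) and 1.90 (1.5 to 2.39). Tox was lower at 0.479, and so was Ikzf2, encoding Helios, at 32.4 against 184 CPM (0.176, 0.147 to 0.210). Of 8 measured inhibitory and exhaustion genes 2 were called higher and 3 lower, with a median of 0.14. In the other cells, Lag3 (373 against 158 CPM) and Havcr2 (41.0 against 9.54 CPM) were also higher in the IRF4 arm. Tox was also lower there, at 74.0 against 113 CPM, and so was Ikzf2. Members held 21.1% (IRF4 arm) and 40.6% (GFP-only arm) of the Ikzf2 UMIs of all CD8 cells that passed the rule's other steps.

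Stem and memory genes were lower in members of the IRF4 arm, with 8 of 14 called lower, 1 higher and a median of -0.79. Tcf7 was 48.3 against 125 CPM, a ratio of 0.385 (0.332 to 0.445). Lef1, which encodes a partner of TCF-1, had a ratio of 0.434, Bcl2 0.449, Klf2 0.537 and Il7r 0.588. Tcf7 and Il7r were also lower in the other cells of the IRF4 arm, at 101 against 213 CPM and 155 against 237 CPM. Lef1 and Bcl2 were lower there as well. Klf2, at the levels given above, was not. Perp, a p53 target encoding a membrane protein, had the highest ratio of all genes eligible for naming at 4.10 (3.50 to 4.79), with 57.8 against 14.1 CPM. Next came the histone gene Hist1h4d at 2.62, whose counts are uncertain because histone genes have near-identical copies. Igfbp7 at 2.48, the ATP synthase subunit gene Atp5k at 2.33 and the arginine synthesis gene Ass1 at 2.07 followed. Perp, Hist1h4d, Igfbp7, Atp5k and Ass1 were also higher in the other cells of the IRF4 arm than in those of the GFP-only arm. Gzmc at 2.07 and Spp1 at 2.04 each had 1 cell holding at least 50% of the UMIs in the IRF4 arm, and both turned direction under several other definitions of members.

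Among genes eligible for naming (at least 50 CPM and 20 UMIs), the 10 lowest in members of the IRF4 arm were Ikzf2 and 9 genes of myeloid and antigen-presenting cells. Pf4 was 4.73 against 118 CPM, a ratio of 0.0403 (0.0242 to 0.0630), and Apoe 10.7 against 128 CPM, a ratio of 0.0838. Lgmn, Hmox1, C1qb and Fcer1g had ratios of 0.171, 0.217, 0.262 and 0.280. H2-Ab1, H2-Aa and H2-Eb1, genes of antigen presentation, had 0.181, 0.212 and 0.217. Few members carried most of this RNA. Of 795 members of the GFP-only arm, from 10 (C1qb) to 27 (Fcer1g) held 50% of the UMIs of each of these 9 genes. In the IRF4 arm it was from 2 (Pf4) to 5 (Apoe) of 112 members. The intervals cover counting error only. Apoe, C1qb, H2-Ab1 and H2-Aa are themselves among the myeloid markers that summed to 399 and 1191 CPM. That sum is therefore not separate from these ratios. The part of myeloid RNA in the result was not tested. In cells without a Lyz2 UMI, C1qb, Fcer1g, H2-Aa and H2-Eb1 turned direction, at log2 ratios of 0.37, 0.65, 1.06 and 0.21.

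The remaining lists had medians from -0.53 to 0.27 between the arms. Growth and ribosome biogenesis genes had 0 of 22 calls in either direction and a median of 0.12. Immediate early factors had 0 of 23 called higher and 1 lower with a median of 0.08, signal feedback genes 2 of 20 higher and 3 lower with -0.15, and costimulatory receptors 1 of 18 higher and 2 lower with 0.03. Glycolysis genes had 0 of 18 called and a median of 0.27, and survival genes 1 of 15 higher and 1 lower with -0.01. Chemokine receptor and adhesion genes had 1 of 11 higher and 4 lower with -0.30, interferon-γ response genes 0 of 17 higher and 2 lower with -0.20, type I interferon genes 1 of 6 higher and 3 lower with -0.53, and heat shock genes 0 of 9 higher and 2 lower with 0.07.

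**Figure D5:**
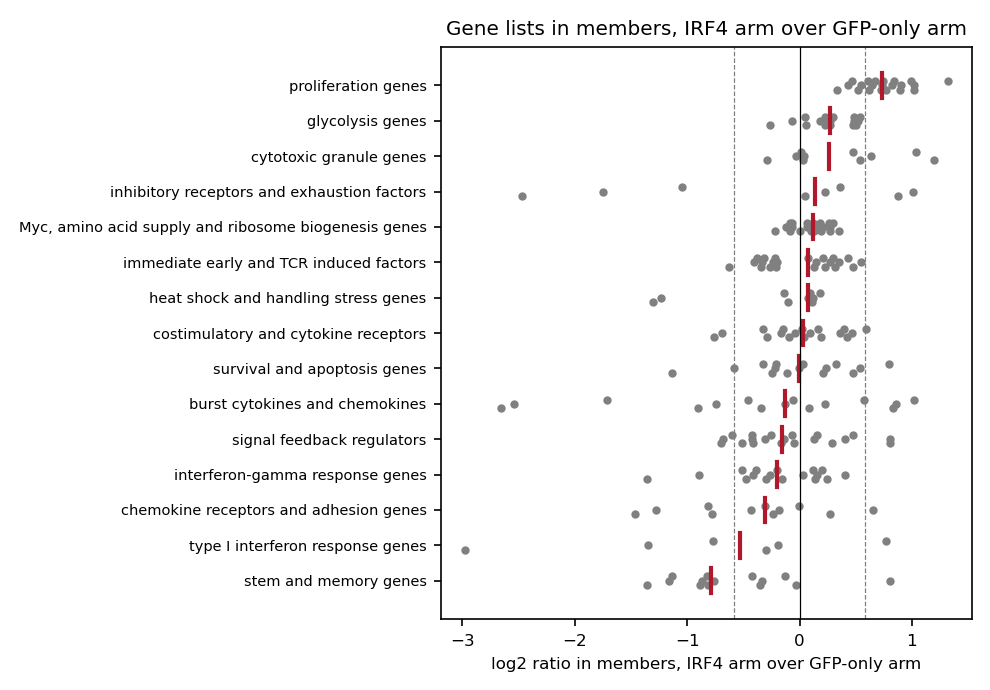
Log2 ratio of summed CPM in members, IRF4 arm over GFP-only arm (horizontal axis), for the measured genes of 15 lists (grey points; red bars are list medians; dashed lines mark a ratio of 1.5). Proliferation genes lie at the top with a median of 0.74, and stem and memory genes at the bottom with a median of -0.79.

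The endogenous CD8 cells that met the same rule also carried high chemokine levels. Ccl3 was 1874 CPM in their IRF4 arm and 2838 CPM in their GFP-only arm, and Ccl4 was 2681 and 2468 CPM, all above the transferred members' levels. Tnfrsf9 was 509 and 521 CPM. Crtam was lower than in transferred members, at 132 and 134 CPM, and so was Tcf7 against the GFP-only arm's members, at 43.1 and 11.4 CPM. Havcr2 was higher, at 135 and 177 CPM against 22.7 and 11.9 CPM in transferred members. These endogenous levels rest on 68 and 40 cells.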

How the data were processed

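Single-cell RNA of 4 libraries was analysed. The deposited values are UMI counts per gene and barcode. Per the submitters' processing notes, Cell Ranger 3.0.2 and STAR 2.6 were used with mm10, and per the labels the libraries came from a 3′ kit of version 3. Free RNA or doublets could change low levels, and no doublet caller was run. The transferred libraries hold 715 (IRF4 arm) and 3640 (GFP-only arm) barcodes, of which 572 and 2513 passed the quality limits. Mitochondrial UMIs above 10% were found in 18.7% and 27.2% of barcodes. Members held 4013309 and 38467087 UMIs, so low genes are less precise in the IRF4 arm.

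Counts were summed over cells and scaled to CPM. Intervals at 95% were exact Poisson for levels, conditional binomial for ratios, Clopper-Pearson for shares and the log method for the ratio of shares. A ratio is of CPM, and log2 ratios and calls added 1 CPM. The 5 rule genes were left out of counts of calls. Code was tested on simulated data. Python 3.11.15, numpy 2.4.6, scipy 1.17.1 and pandas 2.3.3 were used. Named genes were 26 primary genes, the 12 highest and 12 lowest by the weaker arm in members over others, the 10 highest and 10 lowest between arms (at least 50 CPM and 20 UMIs, without ribosomal, mitochondrial and predicted genes), and up to 4 called genes of a list. Members and lists were chosen with earlier results of these data known.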

Additional observations from a re-analysis of the deposited data

Results flagged for a closer look

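By calls, 2 genes were higher in members of the IRF4 arm and lower in those of the GFP-only arm, and 6 the other way. Spp1, Pf4 and Cxcl9 were the 3 of these among the named genes, and their differences between the arms were not tested. The log2 ratio of members over other cells in the IRF4 arm minus that in the GFP-only arm was 3.82 for Spp1, encoding the secreted protein osteopontin, with ratios of 8.19 and 0.558. It was -2.51 for the platelet and macrophage chemokine gene Pf4, with ratios of 0.243 and 1.61. It was -2.06 for Cxcl9, a chemokine gene of interferon-exposed myeloid cells, with ratios of 0.475 and 2.32. Few cells carried these RNAs in members of the IRF4 arm: 10 cells had a Spp1 UMI and 8 a Pf4 UMI. Each of the 3 turned direction in at least 1 arm when members were defined in another way.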

How the results depend on the processing

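No paired analysis was possible because each group held 1 library. There were 19 alternatives, 17 planned and 2 (cells with a Trbv14 UMI, cells of at least 20000 UMIs) chosen after seeing the data. The ratio of member shares stayed below 1 in all 11 alternatives that changed the cells, from 0.509 to 0.721. It was 0.720 at a threshold of 5 per 10000 and 0.721 with Ifng alone. Member shares in the IRF4 and GFP-only arms were 37.6% and 52.2% at a threshold of 5, 12.3% and 23.5% at 20, 4.23% and 5.86% with Ifng alone, 28.8% and 42.7% after thinning, 14.5% and 24.3% in cells without cycle UMIs, and 32.9% and 56.7% in cells of at least 20000 UMIs. The share was 18.3% in the IRF4 arm with Xcl1 alone, and in the GFP-only arm 33.1% in cells without a Lyz2 UMI and 40.1% in cells with a Trbv14 UMI.

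Counts of calls moved with the cells and the rule of calling. Calls higher and lower in members over others numbered 1749 and 1653 (IRF4 arm) and 1041 and 1004 (GFP-only arm) after thinning, 1983 and 2045, and 1428 and 1952, in cells without cycle UMIs, and 1111 and 1001, and 973 and 890, with means of per-cell CPM. They were 201 and 172, and 224 and 100, at a level of 50 CPM, and 60 and 197, and 71 and 22, at a fold of 2. Without a minimum level they were 797 and 1521 in the IRF4 arm, and 480 lower in the GFP-only arm. Without the 6% of cells with most UMIs, 708 were higher in the IRF4 arm, and 627 higher and 521 lower in the GFP-only arm. In cells without a Lyz2 UMI the GFP-only arm gave 833 and 686, and in cells of at least 20000 UMIs 271 were higher in the IRF4 arm, and 235 higher and 90 lower in the GFP-only arm. With Ifng alone 1257 were higher in the IRF4 arm, and with a pseudocount of 5 CPM 168 were lower in the GFP-only arm. Between the arms, calls higher and lower in members were 1294 and 949 with Ifng alone, 1274 and 1320 after thinning, 1103 and 1283 in cells without cycle UMIs, 104 and 84 at 50 CPM, 583 and 1411 without a minimum, and 45 and 148 at a fold of 2, and 226 were lower in cells without a Lyz2 UMI. Thinning and fewer cells leave fewer UMIs per gene. Thinning also chose the members anew. It gave 143 members in the IRF4 arm, 99 of them among the 112, and 902 in the GFP-only arm, 718 of them among the 795. The causes of the moves were not tested.

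Medians of the cytokine, stem and memory, ribosome biogenesis, chemokine receptor and interferon-γ response lists in members over others kept their sign in all 19 alternatives in both arms, as did the proliferation (0.24 to 1.25) and stem (-1.34 to -0.42) medians between the arms. Of 243 ratios of 81 named genes, those that turned direction were as follows, as log2 ratios, and the cause was not tested. In members over others of the IRF4 arm, Spp1 was -3.78 at a threshold of 20, -4.98 with Ifng alone, -4.40 with Xcl1 alone and -5.01 without cycle UMIs. Gzmc was -3.67 with Ifng alone, -2.00 after thinning and -0.0237 without cycle UMIs. Csf2 was -0.77 with Ifng alone and -1.76 without cycle UMIs, Havcr2 0.85 and 0.95, and Ccl5 1.20 and 0.29. Lgmn was 0.0101 at a threshold of 5 and 0.75 after thinning, C1qb 0.37 and 0.37, and H2-Aa 0.0372 in cells without a Lyz2 UMI. In the GFP-only arm, Pf4 was -0.36 at a threshold of 20, -0.51 with Ifng alone, -0.12 without the deepest cells and -0.39 without cycle UMIs. Cxcl9 was -0.12 at a threshold of 20, -0.68 with Ifng alone and -0.34 without a Lyz2 UMI, and with Ifng alone Ccl5 was 0.24 and Cxcr6 0.13. Between the arms, Spp1 was -0.0571 at a threshold of 5, -3.82 at 20, -4.38 with Ifng alone, -4.41 with Xcl1 alone, -1.56 without the deepest cells and -6.17 without cycle UMIs. Gzmc was -0.33 at a threshold of 20, -3.65 with Ifng alone, -2.65 after thinning and -4.67 without cycle UMIs. C1qb was 1.03 and Fcer1g 0.13 after thinning, and without a Lyz2 UMI C1qb was 0.37, Fcer1g 0.65, H2-Aa 1.06 and H2-Eb1 0.21. Hmmr was -0.70 without cycle UMIs, and Ccl5 -0.28 in cells of at least 20000 UMIs.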

Other observations

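Some genes that the rule for named genes did not take differed in the same direction in both libraries, and were chosen after their values were seen. Crabp2, which encodes a cellular retinoic acid binding protein, was 40.4 CPM in members and 2.28 CPM in other cells of the IRF4 arm, and 35.9 against 0.790 CPM in the GFP-only arm. Its UMIs were found in 32 of 112 and 217 of 795 members, and 4 and 41 members held 50% of them. Among other genes higher in members were Asns, for asparagine synthesis, at 31.4 against 12.2 CPM and 36.7 against 13.5 CPM, and Bcat1, for branched-chain amino acid transamination, at 40.4 against 17.4 CPM and 37.7 against 16.1 CPM. Pdcd1lg2, encoding the PD-1 ligand PD-L2, was 89.7 against 44.0 CPM and 65.4 against 31.7 CPM. Mir155hg, the host transcript of microRNA-155, was 32.6 against 11.7 CPM and 47.6 against 20.7 CPM. Cnih2 was 40.1 against 18.6 CPM in the IRF4 arm and 10.1 against 3.59 CPM in the GFP-only arm. Of the genes lower in members, Ifitm1, an interferon-induced membrane protein gene, was 2.24 against 39.9 CPM and 13.5 against 35.8 CPM, and Fgl2 was 22.2 against 75.4 CPM and 22.8 against 44.5 CPM.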
